A study of Mus musculus with 33 samples.

Results

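The carnitine shuttle carries fatty acids into mitochondria for oxidation, and 8 genes of it were followed in mouse liver: Cpt1a, Cpt2, Slc25a20, Crat, Crot, Slc22a5, Bbox1 and Tmlhe. They were chosen by name, as the probe sets whose platform gene symbol is one of these 8, and all 8 were among the 9005 genes tested. Livers came from 33 male C57BL/6J mice aged 17 weeks, each measured on 1 Affymetrix whole-genome expression array after 2 weeks on a diet. The 10 control mice ate a research diet with sunflower oil, 81.3% of it oleic acid, at 7% of energy. The 12 fenofibrate mice ate the same sunflower oil diet with fenofibrate at 0.03% (w/w), a drug whose active form activates the nuclear receptor PPARα. The 11 fish oil mice received fish oil at 7% of energy in place of the sunflower oil, with 23.1% EPA and 21.1% DHA, which are long omega-3 fatty acids. All mice had been fasted during the hours before they were killed, and all were housed 2 per cage. The study compares what the drug and the oil do to liver gene expression; here the question is which steps of carnitine-dependent entry moved.

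A long-chain fatty acid cannot cross the inner mitochondrial membrane as its CoA ester. Cpt1a, on the outer membrane, moves the acyl group from CoA to carnitine; the translocase Slc25a20 exchanges the acylcarnitine for free carnitine across the inner membrane; and Cpt2, on its inner face, gives the acyl group back to CoA. Cpt1a is inhibited by malonyl-CoA, the product of acetyl-CoA carboxylase, and is known as the regulated step of this route in liver. Crat handles acetyl and other short acyl groups, and Crot, in peroxisomes, makes carnitine esters of medium-chain products of peroxisomal oxidation. Carnitine itself is imported by the plasma membrane transporter Slc22a5, or made from trimethyllysine, with Tmlhe as the first enzyme and Bbox1 as the last.

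Values are log2 expression of the probe set with the highest mean of each gene, and differences are log2 differences between diet means ± SE from 1 limma model of all 33 arrays. A gene is called higher or lower at a Benjamini-Hochberg adjusted p under 0.05 over the 9005 genes. Array medians lay between 2.90 and 2.97, and precision is limited by how many arrays each diet has. The 6 measured hepatocyte markers had a mean log2 value of 13.91 to 14.24 on every array. None of the 3 adipocyte and 6 muscle markers with a value here exceeded 2.98. The list held 5 adipocyte markers, and the others were not assessed. Control replicates 1 and 9 were the highest controls for Cpt1a, Cpt2, Slc25a20, Crat, Crot and Slc22a5, and replicate 2 was the lowest for Crat and Bbox1. These 3 arrays had stood apart in other gene lists in an earlier analysis of the same data, so results against control are given with and without them, a choice made with the data seen. Cage-mates cannot be identified from the labels, and arrays with consecutive label numbers deviated together (consensus correlation 0.23), so the SE and adjusted p values can be too small.

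On fenofibrate, 6 of the 8 genes rose, 0 fell and 2, Cpt1a and Bbox1, did not pass the test; across all genes tested, 40.8% were called changed, 22% higher and 18.9% lower. Crat and Slc22a5 rose most, by 2.90-fold and 2.65-fold, followed by Slc25a20 (1.69-fold), Cpt2 (1.49-fold), Crot (1.38-fold) and Tmlhe (1.33-fold). On fish oil, 4 genes rose (Slc22a5, Crot, Slc25a20 and Cpt2), 1 fell (Cpt1a) and 3 did not pass, where 14.5% of all genes were called changed, 7.53% higher and 7% lower. With consecutive label numbers as a random block, 845 genes in place of 1308 were called on fish oil. The median difference of the 8 genes was 0.52 on fenofibrate and 0.27 on fish oil, against -0.00 and 0.01 over all genes. Both comparisons use the same 10 control arrays. In whole liver, fewer cells of a type and less RNA per cell cannot be told apart. On fenofibrate the mean log2 level of the 6 hepatocyte markers ran from 13.91 to 14.05, below the 14.10 to 14.24 of controls. Of the 6, 4 were called lower, against 18.9% of all genes: Ahsg (-0.49 ± 0.04), Hnf4a (-0.42 ± 0.06), Apoa1 (-0.14 ± 0.04) and Apob (-0.13 ± 0.04). Alb (-0.02 ± 0.03, adjusted p = 0.638) and Ttr (-0.04 ± 0.03, adjusted p = 0.263) were not called. On fish oil the mean level of the 6 ran from 14.08 to 14.21, with 1 of the 6, Apoa1, called lower against 7% of all genes. The part of this shift in the changes of the shuttle genes was not tested. Without control replicates 1, 2 and 9, 6 of the 8 genes changed on fenofibrate (41.9% of all genes) and 6 on fish oil (15.9% of all genes), where Crat was the gene added.

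**Figure D1:**
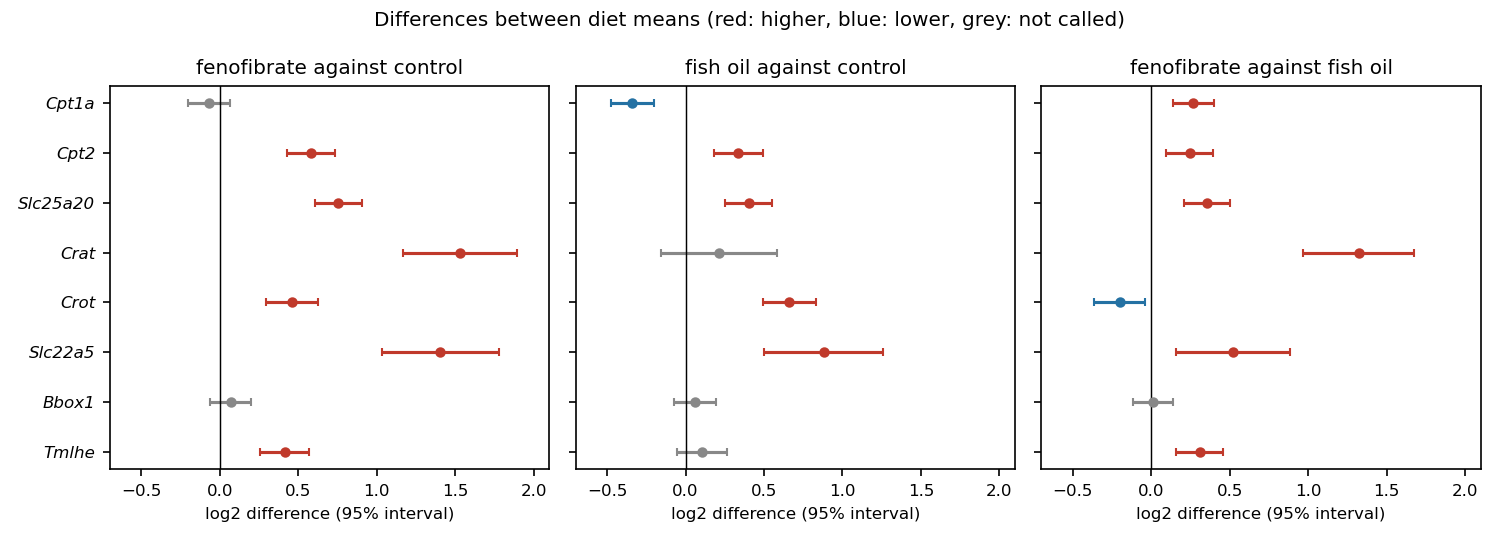
Log2 differences between diet means with 95% intervals for the 8 carnitine shuttle genes in the 3 comparisons; red marks genes called higher, blue lower and grey not called. Fenofibrate raised 6 genes and left Cpt1a and Bbox1 near 0, whereas on fish oil Cpt1a lay below 0 and the interval of Crat spanned 0.

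Slc22a5 encodes OCTN2, the sodium-dependent carnitine importer of the plasma membrane. Its log2 value had a lowest, median and highest value of 7.67, 8.28 and 9.72 in the 10 controls, 9.43, 9.89 and 10.30 in the 12 fenofibrate livers, and 8.74, 9.49 and 9.76 in the 11 fish oil livers. Control replicates 1 and 9, at 9.72 and 9.65, reached into the range of the treated livers, and the other 8 controls lay at or below 8.57. The gene rose by 1.40 ± 0.18 on fenofibrate (adjusted p = 1.55e-07) and by 0.88 ± 0.19 on fish oil (adjusted p = 0.00103). Fenofibrate lay 0.52 ± 0.18 above fish oil (adjusted p = 0.0195), so the diets ordered as control, fish oil and fenofibrate, with each step past the test. Without control replicates 1, 2 and 9 the rises were 1.71 ± 0.14 and 1.19 ± 0.14, and then neither treated group overlapped the controls. By size of change Slc22a5 ranked 126 of the 9005 genes on fenofibrate and 136 on fish oil. Its other probe set moved further, by 1.91 ± 0.25 and 1.18 ± 0.26.

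Tmlhe, trimethyllysine dioxygenase, starts carnitine synthesis in mitochondria. Its log2 value ran from 6.88 over a median of 7.28 to 7.69 in controls, from 7.57 over 7.72 to 7.99 on fenofibrate and from 7.24 over 7.42 to 7.68 on fish oil. On fenofibrate 9 of 12 livers exceeded the highest control and the gene rose by 0.42 ± 0.08 (adjusted p = 4.82e-05). On fish oil the difference from control was 0.11 ± 0.08, with a 95% interval of -0.05 to 0.27, and did not pass (adjusted p = 0.399). Fenofibrate exceeded fish oil by 0.31 ± 0.07 (adjusted p = 0.00129). All 3 probe sets of Tmlhe past the filter were called higher on fenofibrate and none on fish oil.

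Bbox1, gamma-butyrobetaine hydroxylase, completes carnitine synthesis. Its log2 value had a lowest, median and highest value of 11.08, 11.54 and 11.70 in controls, 11.39, 11.53 and 11.64 on fenofibrate and 11.19, 11.51 and 11.71 on fish oil. The 3 diets overlapped throughout. The difference from control was 0.07 ± 0.06 on fenofibrate (95% interval -0.06 to 0.20, adjusted p = 0.406) and 0.06 ± 0.07 on fish oil (-0.07 to 0.20, adjusted p = 0.589). The upper bounds of this probe set were 1.15-fold on both diets. The other probe set of Bbox1 gave 0.17 ± 0.09 on fenofibrate (adjusted p = 0.132) and 0.01 ± 0.09 on fish oil (adjusted p = 0.953), neither of which passed. Control replicates 1 and 2, at 11.12 and 11.08, were the lowest of all 33 arrays, and without them and replicate 9 the differences were 0.01 ± 0.05 and -0.00 ± 0.06. Aldh9a1, the dehydrogenase that acts between Tmlhe and Bbox1, rose on fenofibrate by 0.35 ± 0.04 (adjusted p = 5.45e-09), with 0.06 ± 0.04 on fish oil (adjusted p = 0.380). In the route from trimethyllysine to carnitine, the first enzyme and this dehydrogenase were thus called higher on fenofibrate, while the last enzyme was not called in any comparison.

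**Figure D2:**
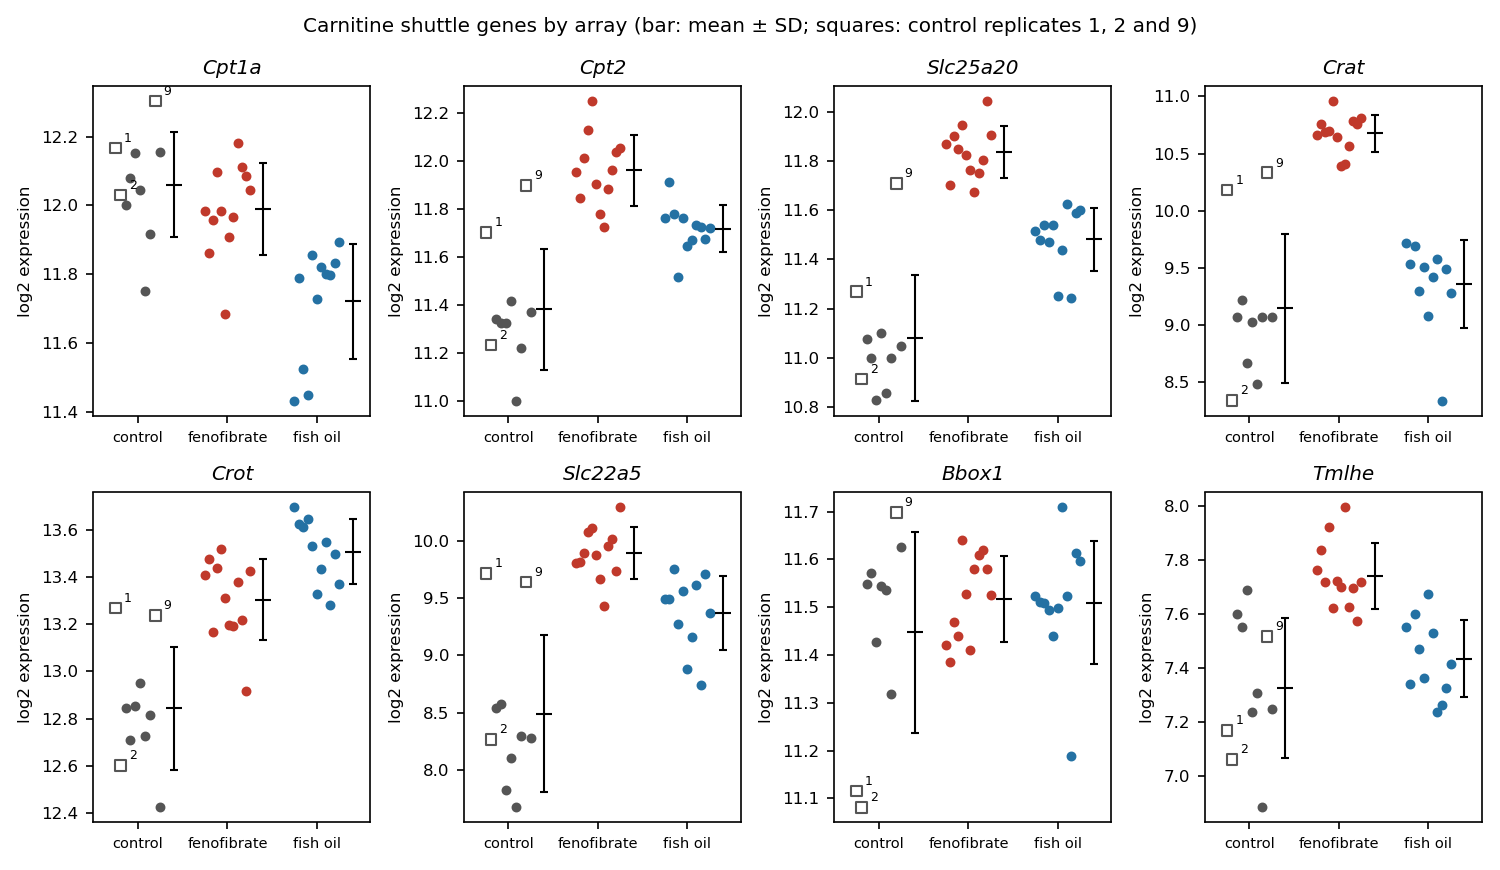
Log2 expression of each of the 8 genes on every array, in 10 control, 12 fenofibrate and 11 fish oil livers; bars give the mean ± SD and open squares with numbers mark control replicates 1, 2 and 9. Control replicates 1 and 9 sat near or within the treated livers for Crat, Crot and Slc22a5, and all 12 fenofibrate livers lay above all controls for Crat.

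At the outer membrane, Cpt1a fell on fish oil and was not called on fenofibrate. Its log2 value had a lowest, median and highest value of 11.75, 12.06 and 12.30 in controls, 11.68, 11.98 and 12.18 on fenofibrate and 11.43, 11.80 and 11.89 on fish oil. The fenofibrate and control livers overlapped, with a difference of -0.07 ± 0.07 and a 95% interval of -0.20 to 0.06 (adjusted p = 0.413). Even its upper bound, 1.04-fold, lies below the lower bounds of the 6 genes that rose on fenofibrate, the smallest of which was 1.20-fold. On fish oil Cpt1a fell by 0.34 ± 0.07 (adjusted p = 0.000473), a 1.27-fold fall, and 4 of 11 livers lay below the lowest control. The 3 lowest fish oil livers lay between 11.43 and 11.52 and the other 8 between 11.73 and 11.89. This gap holds for 1 probe set: replicate 4, at 11.45 here, lay above the fish oil median on the other 2. It had 10.92 and 10.43 there, against medians of 10.78 and 10.32. Fish oil also lay below fenofibrate, by 0.27 ± 0.06 (adjusted p = 0.00107), with 10 of 12 fenofibrate livers above the highest fish oil liver. The other 2 probe sets of Cpt1a had similar falls on fish oil, by 0.30 ± 0.10 each, of which 1 passed over all probe sets (adjusted p = 0.0432) and 1 did not (adjusted p = 0.0505). Neither of them passed between fenofibrate and fish oil (0.19 ± 0.09 and 0.22 ± 0.10, adjusted p = 0.108 and 0.0860).

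The translocase gene Slc25a20 rose on both diets. Its log2 value ran from 10.83 over a median of 11.02 to 11.71 in controls, from 11.67 over 11.84 to 12.04 on fenofibrate and from 11.24 over 11.52 to 11.62 on fish oil. Control replicate 9 was the control at 11.71, and the next highest lay at 11.27. Every fenofibrate liver lay above every fish oil liver, and 10 of 12 lay above the highest control. The rise was 0.76 ± 0.07 on fenofibrate (adjusted p = 4.05e-10) and 0.40 ± 0.07 on fish oil (adjusted p = 2.24e-04), and the diets differed by 0.35 ± 0.07 (adjusted p = 1.60e-04). Its second probe set gave 0.77 ± 0.08 and 0.48 ± 0.08. Without control replicates 1, 2 and 9 the rises were 0.85 ± 0.06 and 0.49 ± 0.06.

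Cpt2, the inner-membrane partner of Cpt1a, also rose on both diets. Its log2 value had a lowest, median and highest value of 11.00, 11.33 and 11.90 in controls, 11.73, 11.96 and 12.25 on fenofibrate and 11.52, 11.73 and 11.91 on fish oil. The 2 highest controls were replicates 9 and 1, at 11.90 and 11.70, and the other 8 lay at or below 11.42, under all treated livers. Cpt2 rose by 0.58 ± 0.07 on fenofibrate (adjusted p = 1.26e-07) and by 0.34 ± 0.08 on fish oil (adjusted p = 0.00214), with fenofibrate 0.24 ± 0.07 above fish oil (adjusted p = 0.00783). Without control replicates 1, 2 and 9 these rises were 0.68 ± 0.06 and 0.43 ± 0.06. Thus the 2 inner-membrane steps were higher on both diets, while the outer-membrane step was lower on fish oil and not called on fenofibrate. A second probe set of Cpt2 stayed below a log2 value of 4 on all arrays and was not tested.

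Crat, carnitine acetyltransferase, had the largest difference between fenofibrate and fish oil of the 8 genes. Its log2 value ran from 8.34 over a median of 9.07 to 10.33 in controls, from 10.39 over 10.69 to 10.96 on fenofibrate and from 8.33 over 9.49 to 9.71 on fish oil. All 12 fenofibrate livers lay above all 10 controls and above all 11 fish oil livers. Such separation held for 1 of the 8 genes against control, where 5.41% of all genes showed it and 3.58% with fenofibrate higher, and for 2 of the 8, Crat and Slc25a20, against fish oil, where 6.34% did and 4.09% with fenofibrate higher. Crat rose on fenofibrate by 1.53 ± 0.18 (adjusted p = 1.84e-08), rank 105 of 9005 genes by size. On fish oil the difference from control was 0.21 ± 0.18, with a 95% interval of -0.16 to 0.58 (adjusted p = 0.490), and fenofibrate exceeded fish oil by 1.32 ± 0.17, or 2.50-fold (adjusted p = 2.04e-07).

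For Crat the fish oil result depends on which controls are used. Control replicates 1 and 9 lay at 10.18 and 10.33, replicate 2 at 8.34, and the other 7 between 8.48 and 9.22. Without these 3 controls the fish oil difference was 0.41 ± 0.13, 1.33-fold, and passed the test (adjusted p = 0.0312), though not when arrays with consecutive label numbers were also treated as a random block (adjusted p = 0.0754). The fenofibrate rise was then 1.74 ± 0.13. The 2 other probe sets of Crat are dim. In controls their medians were 3.52 and 3.98, and on fenofibrate one rose by 1.27 ± 0.13 whereas the other, at 0.35 ± 0.18, did not pass (adjusted p = 0.136). The first of them reached a log2 value of 4 on all 12 fenofibrate arrays but on only 2 control and 2 fish oil arrays, so it passed the filter through the group where it is high, and its rise is no support for that of the brighter probe set. Neither passed on fish oil (0.11 ± 0.13 and -0.14 ± 0.19). In the second of them, control replicate 1 lay at 5.92, above the highest fenofibrate value of 4.92, and the next highest control lay at 4.71. The difference of that probe set without this array was not tested.

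Crot, the peroxisomal carnitine octanoyltransferase, rose on both diets. Its log2 value had a lowest, median and highest value of 12.42, 12.83 and 13.27 in controls, 12.92, 13.34 and 13.52 on fenofibrate and 13.28, 13.53 and 13.69 on fish oil. All 11 fish oil livers lay above all 10 controls, the only one of the 8 genes for which fish oil and control did not overlap; among all genes 1.05% showed such separation and 0.378% with fish oil higher. Crot rose by 0.66 ± 0.08 on fish oil (adjusted p = 5.51e-07), rank 230 of 9005 by size, and by 0.46 ± 0.08 on fenofibrate (adjusted p = 3.07e-05). Fenofibrate lay below fish oil by this measure, with a difference of -0.20 ± 0.08 that passed narrowly (adjusted p = 0.0441). That call was lost in 17 of 46 alternatives, among them without fish oil replicate 1, 2, 3, 4, 5, 8 or 10 or fenofibrate replicate 3, 6, 7, 8, 10 or 11, each left out alone (differences of -0.20 to -0.17, adjusted p from 0.0534 to 0.0888), and with consecutive label numbers as a random block (adjusted p = 0.111). A second probe set of Crot was below a log2 value of 4 on every array.

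Between fenofibrate and fish oil directly, 6 of the 8 genes were higher on fenofibrate (Crat, Slc22a5, Slc25a20, Tmlhe, Cpt1a and Cpt2), 1 was lower (Crot) and 1, Bbox1, did not pass (0.01 ± 0.06, 95% interval -0.12 to 0.14). Of all genes 38.9% were called changed in this comparison, 19.8% higher and 19.1% lower. The median difference of the 8 genes was 0.29, against -0.01 over all genes. With control replicates 1, 2 and 9 left out, 4 of the 8 genes did not overlap between fenofibrate and control (Cpt2, Slc25a20, Crat and Slc22a5), where 11.5% of all genes did not. Between fish oil and control 4 did not (Cpt2, Slc25a20, Crot and Slc22a5), where 3.08% did not. Replicates 1 and 9 were the highest controls for every gene named here, so leaving them out favours such separation. These counts are a description only, and the shares of all genes are no fair measure for them.

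**Figure D3:**
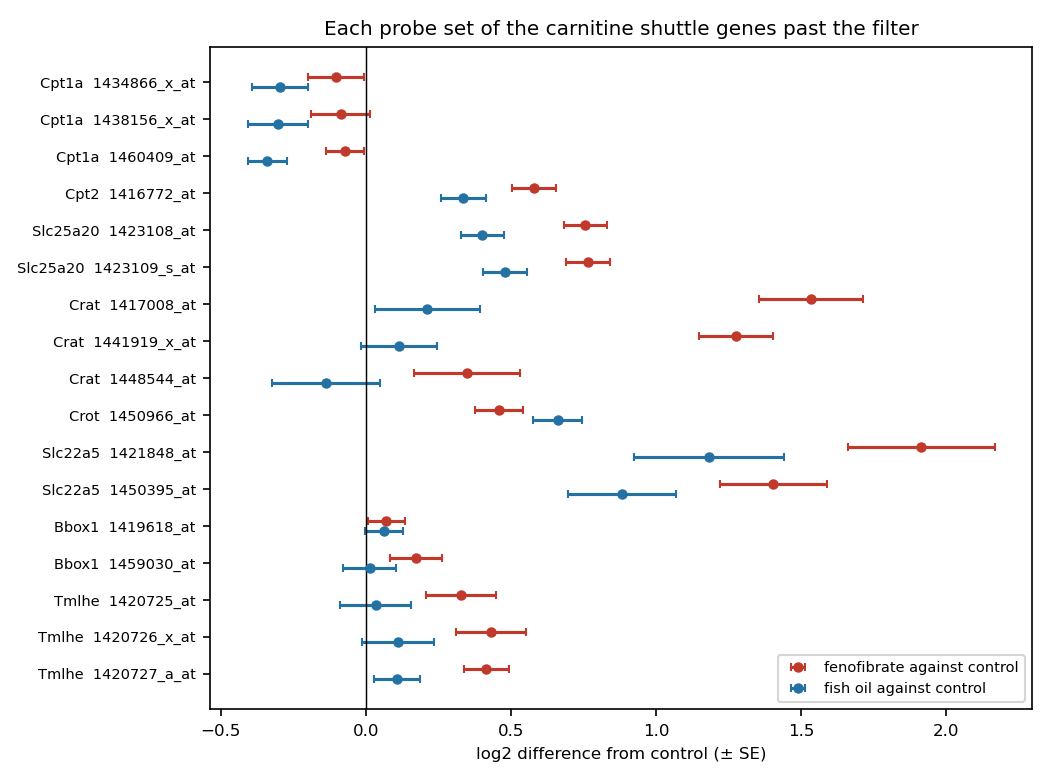
Log2 difference from control ± SE for each of the 17 probe sets of the 8 genes that passed the filter, on fenofibrate in red and on fish oil in blue. The 3 probe sets of Cpt1a all lie below 0 on fish oil, both of Slc25a20 and both of Slc22a5 lie above 0 on both diets, and 1 dim probe set of Crat moves less on fenofibrate than the other 2.

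Of the 20 probe sets of these genes, 17 passed the filter on dim signals. Of these, 11 were called changed on fenofibrate, 8 on fish oil and 13 between the diets, where 36.6%, 11.6% and 34.5% of all probe sets were. The 17, and the 11 and 13 called, include the Crat probe set that passed the filter only through the fenofibrate arrays, so these counts are a description. Probe sets of 1 gene had the same sign in both treated diets except for Crat on fish oil. The proximal promoters of members that moved and of those that did not are shown for comparison, as the 250 bases before the RefSeq transcript start (GRCm38.p6, printed 5′ to 3′ on the gene's strand). Slc25a20 (chr9:108661886-108662135, plus strand) rose on both diets, Cpt1a (chr19:3323051-3323300, plus strand) fell on fish oil, and Bbox1 (chr2:110305726-110305975, minus strand) was not called. Capitals mark GC boxes (GGGCGG on either strand), a binding motif of Sp1.
Slc25a20: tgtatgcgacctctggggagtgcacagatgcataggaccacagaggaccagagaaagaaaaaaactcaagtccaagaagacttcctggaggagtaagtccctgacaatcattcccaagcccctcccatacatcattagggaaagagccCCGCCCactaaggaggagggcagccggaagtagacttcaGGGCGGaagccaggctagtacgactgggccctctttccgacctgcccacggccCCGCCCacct
Cpt1a: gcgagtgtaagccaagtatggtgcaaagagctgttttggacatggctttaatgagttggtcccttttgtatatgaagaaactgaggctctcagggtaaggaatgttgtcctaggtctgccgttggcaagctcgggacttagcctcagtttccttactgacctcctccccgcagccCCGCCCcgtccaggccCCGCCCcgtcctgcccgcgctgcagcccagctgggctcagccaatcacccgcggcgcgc
Bbox1: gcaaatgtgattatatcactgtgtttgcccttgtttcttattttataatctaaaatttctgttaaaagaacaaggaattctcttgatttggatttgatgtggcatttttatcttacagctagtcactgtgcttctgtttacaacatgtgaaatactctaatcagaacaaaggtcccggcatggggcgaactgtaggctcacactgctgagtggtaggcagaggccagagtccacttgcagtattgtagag

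Windows were found for 6 of the 8 genes; Crat and Tmlhe had none. Each window holds 250 bases before and 50 after the start. A GC box was present in 5 of the 6 windows, all but that of Bbox1, and in 35.7% of 32851 windows of all genes. The direct repeat to which PPARα binds with its partner RXR, AGGTCA followed by any 1 base and AGGTCA again, had no exact match in the 6 windows, against 0.0396% of all windows. With up to 2 mismatches over its 12 fixed letters, on either strand, 1 of the 6 held a match, Slc25a20, against 3.86% of all windows. That match, AGGTGAAAGGTCG, has 2 mismatches and lies at bases 7 to 19 counted from 1 at the transcript start. A match is a description of the letters only, and sites outside these windows were not searched.

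Both acetyl-CoA carboxylases, which make the Cpt1a inhibitor malonyl-CoA, rose on fenofibrate and fell on fish oil. Acacb, the mitochondrial acetyl-CoA carboxylase, rose by 0.72 ± 0.14 on fenofibrate (adjusted p = 1.15e-04) and fell by 2.17 ± 0.14 on fish oil (adjusted p = 5.04e-13). Acaca, the cytosolic carboxylase, rose by 0.54 ± 0.13 on fenofibrate (adjusted p = 7.47e-04) and fell by 1.32 ± 0.13 on fish oil (adjusted p = 4.69e-09). Mlycd, which degrades malonyl-CoA, rose by 0.43 ± 0.06 on fenofibrate (adjusted p = 4.09e-07) and did not pass on fish oil (0.13 ± 0.06, adjusted p = 0.160). This list also holds subunits of the AMP-activated kinase that phosphorylates the carboxylases. Of its 8 measured genes, 4 rose and 1 fell on fenofibrate, where 22% of all genes were higher and 18.9% lower. On fish oil 0 rose and 2 fell, where 7.53% were higher and 7% lower. The kinase subunits on fenofibrate were Prkaa1, which rose by 0.37 ± 0.13, Prkab1, which fell by 0.33 ± 0.07, and Prkaa2, Prkag1 and Prkag2, which did not pass (0.18 ± 0.08, -0.07 ± 0.06 and -0.16 ± 0.13). On fish oil Cpt1a and both carboxylases were therefore lower, while on fenofibrate the carboxylases were higher and Cpt1a was not called.

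**Figure D4:**
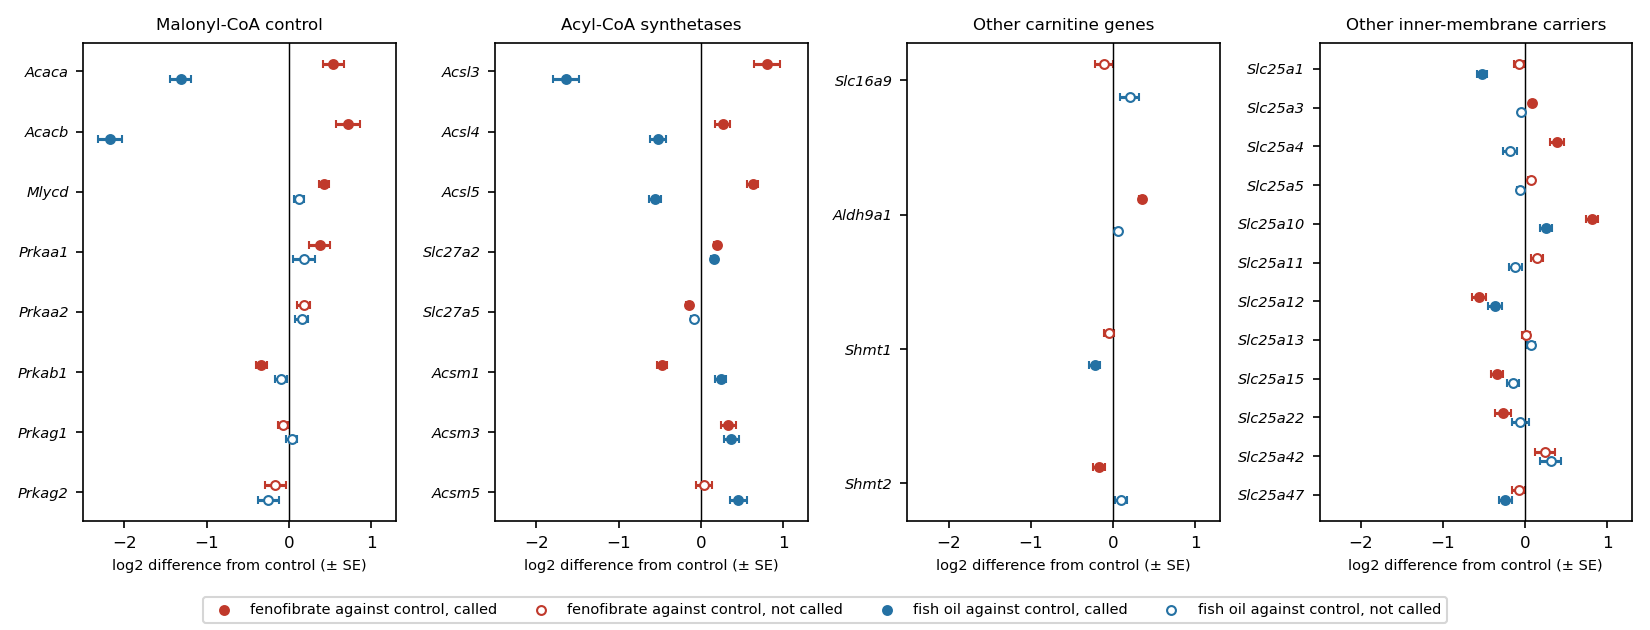
Log2 difference from control ± SE for measured genes of 4 lists around the shuttle, on fenofibrate in red and on fish oil in blue; filled points are called, open points are not. Acaca, Acacb, Acsl3, Acsl4 and Acsl5 lie above 0 on fenofibrate and below 0 on fish oil.

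Of 8 measured acyl-CoA synthetases, 5 rose and 2 fell on fenofibrate, where 22% of all genes were higher and 18.9% lower. On fish oil 4 rose and 3 fell, where 7.53% were higher and 7% lower. Acsl5, a long-chain acyl-CoA synthetase, rose by 0.63 ± 0.07 on fenofibrate and fell by 0.56 ± 0.07 on fish oil. Acsl3 fell on fish oil by 1.64 ± 0.16 and Acsl4 by 0.52 ± 0.09, and on fenofibrate they rose by 0.80 ± 0.16 and 0.27 ± 0.09. Acsm1, a medium-chain synthetase, fell on fenofibrate by 0.47 ± 0.06 and rose on fish oil by 0.24 ± 0.07 (adjusted p = 0.0115). Slc27a2, a very-long-chain synthetase, rose on both, by 0.20 ± 0.03 and 0.16 ± 0.03.

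Among the other genes of carnitine handling, 4 of 10 listed were measured: besides Aldh9a1, these were the carnitine efflux transporter gene Slc16a9 and the serine hydroxymethyltransferases Shmt1 and Shmt2. On fenofibrate 1 of the 4 rose and 1 fell, Shmt2, by 0.17 ± 0.07 (adjusted p = 0.0489). These counts lie near the shares of all genes, 22% higher and 18.9% lower. On fish oil 0 rose and 1 fell, Shmt1, by 0.22 ± 0.06 (adjusted p = 0.0140), where 7.53% of all genes were higher and 7% lower. Slc16a9 did not pass on either diet (-0.11 ± 0.11 and 0.20 ± 0.11).

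Slc25a20 belongs to the family of mitochondrial inner-membrane carriers. Of 12 other measured carriers, 3 rose and 3 fell on fenofibrate with a median difference of 0.04, and 1 rose and 3 fell on fish oil with a median of -0.09. Beside the shares of all genes, 22% higher and 18.9% lower on fenofibrate, the carriers' counts there lie near the background. On fish oil 7.53% of all genes were higher and 7% lower, beside the 1 and 3 of the 12 carriers. The dicarboxylate carrier Slc25a10 rose by 0.81 ± 0.07 on fenofibrate and by 0.25 ± 0.07 on fish oil, beside the 0.76 and 0.40 of Slc25a20. The aspartate-glutamate carrier Slc25a12 fell by 0.56 ± 0.08 and 0.37 ± 0.08, the ornithine carrier Slc25a15 fell by 0.35 ± 0.07 on fenofibrate, and the citrate carrier Slc25a1 fell by 0.52 ± 0.06 on fish oil.

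Downstream of Cpt2 lies mitochondrial beta-oxidation, and 17 genes of a list for it were measured. Where in the cell each of their enzymes acts, Eci2 and Acad11 among them, was not tested. Of these 17 genes, 16 rose on fenofibrate and 14 on fish oil, and 0 fell on either diet, with median differences of 0.63 and 0.27. Across all genes tested, 22% were higher and 18.9% lower on fenofibrate, and 7.53% higher and 7% lower on fish oil. Decr1, which reduces double bonds, rose by 1.04 ± 0.05 and 0.48 ± 0.05, Eci1, which shifts them, by 1.31 ± 0.07 and 0.55 ± 0.07, and the very-long-chain dehydrogenase Acadvl by 0.59 ± 0.04 and 0.31 ± 0.04. Beside these medians stand the 0.58 and 0.34 of Cpt2, the 0.76 and 0.40 of Slc25a20, and the -0.07 and -0.34 of Cpt1a. Of 16 measured genes of peroxisomal beta-oxidation, the pathway that feeds Crot, 11 rose and 1 fell on fenofibrate, and 9 rose and 0 fell on fish oil, with medians of 0.76 and 0.37. Ehhadh, the bifunctional enzyme of that pathway, rose by 2.39 ± 0.18 and 1.20 ± 0.18.

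In the list of receptors and coactivators, 1 of 8 measured genes rose and 1 fell on fenofibrate, and none passed on fish oil. These counts do not exceed the shares of all genes, 22% higher and 18.9% lower on fenofibrate and 14.5% changed on fish oil. Pparg rose by 0.87 ± 0.15 from a dim control mean of 5.02, and Rxra, the partner of the PPAR receptors, fell by 0.36 ± 0.07. Markers of other liver cells were counted as well. On fenofibrate, where 18.9% of all genes were lower and 22% higher, of 8 Kupffer cell markers 2 fell and 0 rose, of 5 stellate cell markers 3 fell and 1 rose, and of 7 sinusoidal endothelial markers 3 fell and 1 rose; on fish oil, where 7% of all genes were lower, 3 endothelial markers fell and no other marker of these 3 lists passed. The mean log2 level of the Kupffer markers ran from 8.77 to 9.46 in controls, 8.16 to 9.63 on fenofibrate and 8.52 to 9.56 on fish oil. That of the stellate markers ran from 9.24 to 9.70, 9.16 to 9.52 and 9.30 to 9.65, and that of the endothelial markers from 8.24 to 8.53, 8.11 to 8.49 and 8.00 to 8.26. The part of these levels in the changes of the shuttle genes was not tested.

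Across the 33 arrays, the genes whose log2 values tracked each shuttle gene most closely by Pearson's r were taken as a description; arrays of a diet share their treatment, so r within diets, after subtraction of diet means, stands beside it. Cpt2 was closest to Acad11, an acyl-CoA dehydrogenase (r = 0.94, within diets 0.81), and to Slc25a20 itself (0.93, within diets 0.77). Slc25a20 was closest to the pantetheinase gene Vnn1 (0.97, within diets 0.84) and to the lipase gene Abhd6 (0.96, within diets 0.82). Crat was closest to Mmadhc (0.94, within diets 0.79) and to the fatty acid hydroxylase gene Cyp4a31 (0.94, within diets 0.89). Slc22a5 was closest to Hsdl2 (0.96, within diets 0.92) and Rab30 (0.95, within diets 0.87).

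Cpt1a was closest to 1810055G02Rik (r = 0.84, within diets 0.67) and Mppe1 (0.80, within diets 0.73), with differences from control on fish oil of -1.25 and -0.99. On fenofibrate, where Cpt1a was not called, these genes differed from control by -0.24 and -0.65, of which that of Mppe1 passed the test (adjusted p = 0.00301). Crot was closest to Adck5 (0.90, within diets 0.74) and to the epoxide hydrolase gene Ephx1 (0.89, within diets 0.78). Bbox1 was closest to Ddah1 (0.82, within diets 0.85) and Cnbp (0.79, within diets 0.79), and Tmlhe to Prxl2b (0.81, within diets 0.59) and Pparg (0.79, within diets 0.56). Among the 8 genes themselves, Slc22a5, Slc25a20, Cpt2 and Crat had r between 0.74 and 0.90 with each other within diets, whereas Tmlhe had r between -0.08 and 0.09 with these 4. Control replicates 1 and 9 were the highest controls for Slc22a5, Slc25a20, Cpt2 and Crat. They lay 1.15 and 1.32 above the mean of the other controls for Crat, and 1.37 and 1.28 above it for Slc22a5. The part of these arrays in the r values within diets was not tested.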

How the data were processed

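The authors deposited 1 log2 value per probe set and array. The submitters' processing notes name GCRMA 2.24.1, a method that models background from probe sequence and equalizes the arrays. Such processing can distort differences among weak signals. The genome build is not given in the sources used here. Of 45101 probe sets 64 control probe sets were left out. Genes were named from the platform annotation, updated to the mouse assembly GRCm38.p6; probe sets with several genes were not used. The filter kept 17162 probe sets that reached log2 4 on 10 or more of the 33 arrays, and the one with the highest mean stood for its gene (9005 genes). Groups come from the sample titles. One linear model over the 3 diets was fitted with limma 3.58.1 (R 4.3.3, two-sided), and the same model to all 17162 probe sets; the fit was tested on simulated data. The alternatives changed the filter, scaling, probe set, variance model, arrays, array weights and blocks. Leaving out control replicates 1, 2 and 9 was a choice made with the data seen. In 1 of 46 the random block was added to that choice, also after the data were seen. The 8 genes and the gene lists were chosen with earlier results of these data known. Outside the 8, genes named are the malonyl-CoA genes, the other carnitine genes, the measured hepatocyte markers and the 2 closest genes by r. Of each remaining list, up to 3 called genes with the smallest adjusted p per diet are named. Promoter sequences are RefSeq's for GRCm38.p6.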

Additional observations from a re-analysis of the deposited data

Results flagged for a closer look

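In Slc25a20, control replicate 9 stood apart from the other controls: at 11.71 against 11.27 for the next highest, the gap was 0.50 of the whole range of the 10 controls, above Dixon's 95% critical value for 10 samples. The 8 genes were tested this way in the controls, and chance flags about 1 in 20 groups. The 12 fenofibrate and 11 fish oil arrays were not tested, being more than 10. The same array was also the highest control for Cpt1a, Cpt2, Crat and Bbox1.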

How the results depend on the processing

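The 6 genes higher on fenofibrate, and the 4 higher and 1 lower on fish oil, kept their calls in all 46 alternatives; the highest adjusted p for the fall of Cpt1a was 0.0498. Between the diets the count of lower genes (Crot alone) went from 1 to 0 with no filter, with the probe set of highest variance, with consecutive label numbers as a random block and without the arrays with a letter in the label number, and ran from 0 to 1 when single arrays were left out; the cause was not tested. Cpt1a lost its call between the diets on its probe set with the highest variance (0.22, adjusted p = 0.0865). Crat passed on fish oil with array weights (0.39, adjusted p = 0.0278) and without control replicates 1, 2 and 9. The genes called on fish oil numbered 845 of 9005 with consecutive label numbers as a random block, against 1308, and 1956 with array weights, the highest count of the alternatives. Bbox1, never called, changed sign on fish oil without control replicates 1, 2 and 9 (-0.0014; -0.010 with the random block) and between the diets with array weights (-0.017), without the arrays with a letter (-0.027) and without single arrays (-0.024 to 0.028). Replicate numbers were not treated as pairs in the main model. Deviations of same-numbered arrays correlated at -0.21 to 0.35, 11 of 30 pairs above 0.1. In 12 of 60 comparisons of an array with another diet, it correlated best with its own number. The count to be had by chance was not computed, so whether the numbers pair the arrays was not tested. With the replicate block the counts of changed genes among the 8 stayed at 6, 5 and 7, and 3574, 1318 and 3467 of all genes were called. The signal of dim probe sets limits Crat's other probe sets.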

Other observations

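The spread of the shuttle genes differed between diets. Crat had an SD of 0.65 (n = 10) in controls, 0.16 (n = 12) on fenofibrate and 0.39 (n = 11) on fish oil, and Slc22a5 had an SD of 0.69, 0.23 and 0.33. In the 7 controls other than replicates 1, 2 and 9 the SD was 0.27 for Crat and 0.34 for Slc22a5. On fish oil, replicate 9 was the lowest array for Crat, Slc25a20, Crot, Slc22a5 and Bbox1. In the 16 complete pairs of consecutive label numbers, Bbox1 differed by a median of 0.04 within a pair, against 0.12 between other arrays of a diet, whereas the medians for Slc25a20 were both 0.13.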
